A study of Homo sapiens with 60 samples.

Results

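ETV1, ETV4 and ETV5 make up the PEA3 group of ETS transcription factors, and EGR1, EGR2 and EGR3 are zinc-finger immediate-early factors. They were taken by name, as factors whose transcription depends on ERK signalling, and all 6 are among the 19712 genes in the count and TPM tables. ERK phosphorylates ternary complex factors that sit with SRF on CArG boxes, which drives EGR and FOS transcription within minutes of a stimulus. The PEA3-group genes follow ERK more slowly, in part through release of the repressor capicua, and their proteins are kept low by the ubiquitin ligase COP1. EGR proteins in turn raise NAB2, a corepressor that acts back on them.

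The data are 60 bulk RNA-seq libraries from 4 lung adenocarcinoma lines with mutant EGFR (PC9, HCC827, H1975 and HCC2935), each with 5 arms of 3 replicates. DMSO cells had vehicle for 24 h, acute cells had 500 nM osimertinib for 24 h, and persister (DTP) cells had the same dose for 21 days. Short washout cells were persisters kept without drug for 24 h, and long washout cells were persisters kept without drug for 7 days (PC9), 3 days (H1975), 4 days (HCC827) or 10 days (HCC2935). The labels call the replicates biological triplicates, so each p measures the spread between these samples. The long washout therefore differs in length between lines, and the DMSO arm is a 24 h vehicle control for the 21-day persisters as well. Median depth was 40.2 M counts a library in PC9, 19.7 M in HCC827, 42.9 M in H1975 and 21.6 M in HCC2935. EGR3 was too low to be tested in HCC827, so 23 of the 24 combinations of gene and line have a test.

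All 6 genes have annotated positions: ETV1 on chr7:13891228-13991425, ETV4 on chr17:43527844-43579620, ETV5 on chr3:186046308-186110318, EGR1 on chr5:138465490-138469315, EGR2 on chr10:62811996-62919900 and EGR3 on chr8:22687659-22693302 (GRCh38). EGR1 lies on the plus strand and the other 5 on the minus strand. ETV4 shares 68 exon bases (1.89% of its exons) with DHX8 on the opposite strand, and ETV5 shares 164 exon bases (2.83%) with DGKG on its own strand. EGR3 shares 164 exon bases (3.38%) with AC055854.1 on the opposite strand, a gene that is not in the tables. Whether the libraries keep strand is not stated, so reads from bases shared across strands cannot be told apart. For the bases ETV5 shares with DGKG strand would not separate them. None of the 6 genes has a pseudogene named after it.

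RefSeq promoter sequences (GRCh38.p14) were available for EGR1 (1 promoter), EGR2 (3) and ETV1 (6), and none was available for ETV4, ETV5 or EGR3. Both strands were searched for the CArG box, TGACGTCA (the full CRE), TGAATGAA, TGAATGGA, TCAATGAA and TCAATGGA (capicua sites), GCGNGGGCG (EGR sites) and CCGGAAGT (an ETS site). EGR1 has CArG boxes 105 and 83 bases upstream of its start and an EGR site 198 bases upstream. EGR2 has a CArG box 71 bases upstream in 1 of its promoters, and ETV1 has a capicua site (TGAATGGA) 125 bases upstream in 1 of its promoters. Another EGR2 promoter has an EGR site from base 9 after its start, outside the upstream bases counted next. In the 250 upstream bases of 35116 RefSeq promoters a CArG box is found in 1.16%, the full CRE in 1.65%, a capicua site in 3.18%, an EGR site in 8.42% and the ETS site in 3.42%. A match is a description of sequence and shows neither binding nor use.

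These promoters are shown because they hold matches to the CArG box or to a capicua site. Whether ERK acts on the genes through these matches was not tested. The upstream bases run 5′ to 3′ with the matches in capitals, for EGR1 at chr5:138465229-138465478 (plus strand), EGR2 at chr10:62816367-62816616 (minus strand) and ETV1 at chr7:13991426-13991675 (minus strand).

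EGR1 promoter: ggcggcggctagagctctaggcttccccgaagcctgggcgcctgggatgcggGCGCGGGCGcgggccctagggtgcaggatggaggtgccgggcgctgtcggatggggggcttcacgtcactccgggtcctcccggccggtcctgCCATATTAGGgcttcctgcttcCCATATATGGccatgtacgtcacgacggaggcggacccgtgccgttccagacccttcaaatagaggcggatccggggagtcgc

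EGR2 promoter: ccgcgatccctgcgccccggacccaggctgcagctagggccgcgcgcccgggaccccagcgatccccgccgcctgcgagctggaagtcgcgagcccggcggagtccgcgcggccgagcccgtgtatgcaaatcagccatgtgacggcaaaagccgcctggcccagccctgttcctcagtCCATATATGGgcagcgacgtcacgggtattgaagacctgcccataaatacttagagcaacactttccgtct

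ETV1 promoter: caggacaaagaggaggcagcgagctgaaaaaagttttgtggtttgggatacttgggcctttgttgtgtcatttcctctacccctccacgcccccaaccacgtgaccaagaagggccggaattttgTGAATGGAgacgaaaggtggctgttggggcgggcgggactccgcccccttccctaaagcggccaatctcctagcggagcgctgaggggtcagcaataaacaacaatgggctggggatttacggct

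The 5 epithelial markers summed to 1636 to 13641 TPM over the libraries, most of it keratins (KRT8 at 575 to 6127 TPM, KRT18 at 535 to 3815 and KRT19 at 394 to 3182). CDH1 and EPCAM were lowest in H1975, down to 1.28 and 18.1 TPM, a line where COL1A1 reached 167 TPM. In the lung list NAPSA reached the most, at 0.264 to 421 TPM. Of its 4 genes 3 were found by name, and NKX2-1 was not found under that spelling and so not analysed here. Fibroblast markers summed to 4.90 to 207 TPM (mostly COL1A1), leukocyte markers to 9.80 to 175 TPM (mostly CD68, with CD3E under 1 TPM in all 60 libraries), and neuroendocrine markers to at most 1.72 TPM, with INSM1 at 0 in all 60. Endothelial markers summed to 0.255 to 22.0 TPM, with CDH5 at 9.40 to 21.1 TPM in HCC2935. Proliferation genes are lower in most drug arms (given with the lists below), and their part in the results for the 6 genes was not tested. In bulk RNA fewer cells making a transcript and less of it per cell cannot be told apart for any of the 6 genes.

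Some persister and washout libraries do not sit with their own group. Across 11314 genes all 24 DMSO and acute libraries were closest to their own arm (correlation with the group mean 0.715 to 0.953), whereas 14 of the 36 persister and washout libraries were closest to another arm: 2 of 9 in PC9, 8 of 9 in HCC827, 3 of 9 in H1975 and 1 of 9 in HCC2935. PC9 long washout replicate 3 stands furthest apart, at -0.169 with its own group and 0.582 with the PC9 persisters. PC9 long washout replicate 2 is closer to DMSO (0.732) than to its own group (0.348). ETV4 shows the same split, at 48.5 and 56.9 TPM in replicates 1 and 2 and 13.9 TPM in replicate 3, and ETV5 at 24.9 and 22.1 TPM against 5.57 TPM. Values without replicate 3 are given with the PC9 washout results, a choice made after the data were seen.

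**Figure D1:**
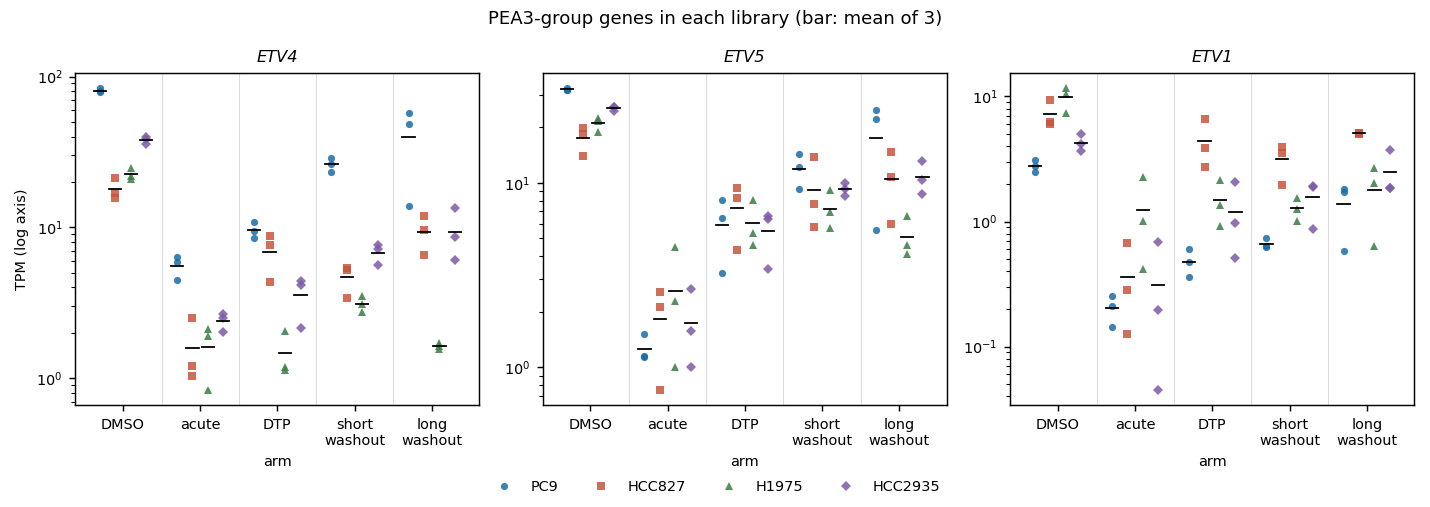
ETV4, ETV5 and ETV1 in each of the 60 libraries, as TPM on a log axis, by arm and line. Black bars are means of 3 libraries.

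Under DMSO the lines differ in their PEA3-group genes. ETV4 was highest in PC9 at 80.8 ± 2.55 TPM (mean ± SD, n = 3), then HCC2935 at 37.9 ± 2.02, H1975 at 22.6 ± 1.96 and HCC827 at 17.9 ± 2.87. ETV5 kept the same order (32.1 ± 0.398, 25.4 ± 0.735, 21.0 ± 1.86 and 17.4 ± 3.06 TPM). ETV1 ran nearly the other way, highest in H1975 at 9.87 ± 2.17 TPM, then HCC827 at 7.19 ± 1.85, HCC2935 at 4.26 ± 0.681 and PC9 at 2.79 ± 0.321. For all 3 genes H1975 and HCC827 are neighbours in this order whose SDs overlap. ETV4 makes up 69.8% of the summed PEA3-group TPM in PC9. A test for any difference between the 4 lines called ETV4 (adjusted p 6.41e-10), ETV5 (3.93e-06), ETV1 (2.82e-05) and EGR3 (1.15e-05), 4 of the 6 genes, beside 91.2% of all genes tested.

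EGR1 under DMSO was at 54.6 ± 38.5 TPM in HCC2935, 47.5 ± 30.8 in H1975, 24.7 ± 22.7 in HCC827 and 12.4 ± 12.7 in PC9, with SDs near the size of the means. EGR1 (adjusted p 0.218) and EGR2 (0.0653) were not called as different between lines, though EGR1 was called without PC9 DMSO replicate 1 (0.0403). EGR2 was called by limma on log2(TPM + 1) (0.0104), with a replicate block (0.0391), and without PC9 DMSO replicate 1 (0.0118), HCC827 DMSO replicate 1 (0.0195) or HCC2935 DMSO replicate 3 (0.0409). EGR2 was low in every line, at 0.520 ± 0.131 TPM in H1975, 0.143 ± 0.166 in PC9, 0.124 ± 0.116 in HCC2935 and 0.107 ± 0.132 in HCC827. EGR3 was at 0.637 ± 0.213 TPM in PC9, 0.346 ± 0.1 in H1975, 0.0583 ± 0.0523 in HCC2935 and 0.0096 ± 0.0083 in HCC827, and each HCC827 DMSO library held at most 1 count. HCC827 persister libraries held 0 to 21 EGR3 counts.

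ETV1, ETV4 and ETV5 all fell under acute osimertinib in every line. Counting all 6 genes, 4 of 6 were called lower in PC9 (with 31.7% of all genes tested), 3 of 5 in HCC827 (20.2%), 4 of 6 in H1975 (23.8%) and 4 of 6 in HCC2935 (22.2%). None of the 6 was called higher in any line. Genes called higher numbered 5126 of 14866 in PC9, 2748 of 14665 in HCC827, 4271 of 15379 in H1975 and 3720 of 14946 in HCC2935. The same numbers stand beside the counts called higher after acute drug in the lists below. These PEA3-group calls held in every alternative fit that tested the gene and with any 1 library left out (a filter of at least 10 counts in every library leaves ETV1 untested outside H1975).

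ETV4 was at 78.5, 83.5 and 80.3 TPM in PC9 under DMSO and at 5.88, 4.50 and 6.35 TPM after acute drug. In HCC827 it went from 21.2, 16.9 and 15.7 TPM to 1.04, 2.52 and 1.21 TPM, in H1975 from 24.8, 21.9 and 21.0 TPM to 1.91, 2.11 and 0.836 TPM, and in HCC2935 from 35.6, 39.5 and 38.6 TPM to 2.04, 2.5 and 2.67 TPM. Every DMSO library lies far above every acute library of its line, and the acute means are 6.34% to 8.87% of the DMSO means. The log2 fold changes were -3.84 ± 0.40 (± SE; adjusted p 1.14e-06) in PC9, -3.56 ± 0.35 (3.56e-06) in HCC827, -3.75 ± 0.30 (8.24e-07) in H1975 and -3.94 ± 0.30 (7.56e-08) in HCC2935. ETV4 thus fell 11.8-fold to 15.3-fold from DMSO levels that themselves spread from 17.9 to 80.8 TPM, and its fall was not called as different between lines (adjusted p 0.809).

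ETV5 in PC9 was at 32.1, 31.8 and 32.6 TPM under DMSO and at 1.15, 1.14 and 1.51 TPM after acute drug. The other lines went from 18.4, 19.9 and 14 TPM to 0.752, 2.13 and 2.57 TPM (HCC827), from 18.9, 22.5 and 21.6 TPM to 4.50, 2.28 and 1.00 TPM (H1975) and from 25.8, 24.5 and 25.8 TPM to 1.57, 1.00 and 2.66 TPM (HCC2935). No acute library reached the DMSO range, though the 3 H1975 acute libraries spread more than 4-fold among themselves. Its log2 fold changes were -4.65 ± 0.50 (adjusted p 1.63e-06), -3.33 ± 0.44 (4.43e-05), -2.96 ± 0.40 (2.91e-05) and -3.84 ± 0.29 (7.99e-08) in PC9, HCC827, H1975 and HCC2935. ETV5 was the 1 member whose acute change was called as different between lines (adjusted p 0.0474, 1 of 6 genes, beside 40.5% of all genes), with the deepest fall in PC9 and the shallowest in H1975. That call is fragile: across the alternative fits the adjusted p ran from 0.0185 to 0.209 (0.162 with a replicate block within each line), and 19 of the 24 fits with 1 library left out missed the threshold, the highest at 0.108 without PC9 acute replicate 1. EGR3 was not called in this test (0.312), except by limma (0.0466 on log2 TPM and 0.00169 with 1 added).

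ETV1 starts from lower levels. It went from 2.76, 3.13 and 2.49 TPM to 0.210, 0.253 and 0.145 TPM in PC9, from 9.32, 6.25 and 6 TPM to 0.126, 0.670 and 0.285 TPM in HCC827, from 10.5, 11.6 and 7.44 TPM to 2.27, 1.01 and 0.418 TPM in H1975 and from 4.15, 3.65 and 4.99 TPM to 0.196, 0.0449 and 0.684 TPM in HCC2935. Again the groups do not overlap in any line, but outside H1975 the acute libraries hold only 1 to 20 ETV1 counts each. The changes were -3.76 ± 0.43 (adjusted p 2.94e-06) in PC9, -4.37 ± 0.47 (8.25e-06) in HCC827, -2.94 ± 0.54 (0.000411) in H1975 and -3.74 ± 0.64 (0.000194) in HCC2935, with no difference between lines called (adjusted p 0.398).

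**Figure D2:**
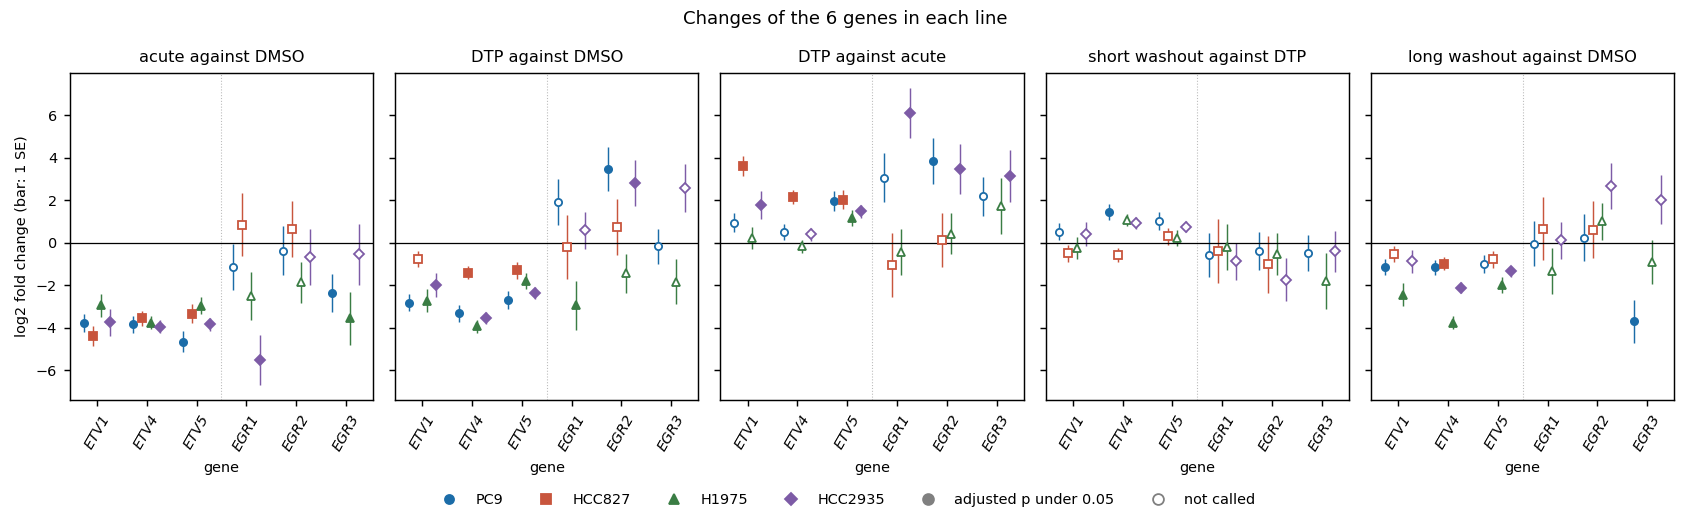
Log2 fold changes (± SE) of the 6 genes in each line for the 5 comparisons. Filled points have an adjusted p under 0.05 and open points do not.

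Persisters kept ETV4 and ETV5 below DMSO in all 4 lines. ETV4 in persisters was at 10.8, 8.47 and 9.51 TPM in PC9, 8.77, 7.59 and 4.35 TPM in HCC827, 1.18, 2.07 and 1.14 TPM in H1975 and 4.17, 2.16 and 4.44 TPM in HCC2935, below every DMSO library of the same line. Against DMSO it changed by -3.32 ± 0.38 in PC9, -1.41 ± 0.31 in HCC827, -3.92 ± 0.30 in H1975 and -3.55 ± 0.29 in HCC2935 (adjusted p 3.57e-06, 0.00193, 4.03e-07 and 8.78e-08). HCC827 persisters therefore hold 38.5% of their DMSO ETV4, against 11.9% in PC9, 9.47% in HCC2935 and 6.50% in H1975. ETV5 was at 6.42, 3.24 and 8.05 TPM in PC9, 9.41, 8.24 and 4.33 TPM in HCC827, 4.60, 8.11 and 5.36 TPM in H1975 and 6.64, 3.42 and 6.36 TPM in HCC2935. The ETV5 groups also lie wholly under DMSO, at 18.4% (PC9), 42.0% (HCC827), 28.7% (H1975) and 21.6% (HCC2935) of the DMSO mean, with adjusted p 8.4e-05, 0.0166, 0.00117 and 2.17e-06. The HCC827 ETV5 call is lost without DMSO replicate 2 (adjusted p 0.0502) or without DTP replicate 3 (0.0643).

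ETV1 in persisters was called lower in 3 of 4 lines: -2.81 in PC9 (adjusted p 2.34e-05), -2.72 in H1975 (0.000686) and -1.97 in HCC2935 (0.00773). In HCC827 its 6.58, 3.89 and 2.74 TPM overlap the DMSO range, and the change of -0.75 ± 0.38 was not called (adjusted p 0.125) unless DTP replicate 1 was left out (-1.12, 0.0429). With the EGR genes, 3 of 6 members were called lower in PC9 persisters (33.5% of all genes), 2 of 5 in HCC827 (20.4%), 4 of 6 in H1975 (25.7%) and 3 of 6 in HCC2935 (25.8%). EGR2 was the 1 member called higher, in PC9 (35.7% of all genes higher) and in HCC2935 (27.0%).

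Set against acute drug, ETV5 was higher in persisters in all 4 lines: by 1.96 ± 0.47 in PC9 (adjusted p 0.00558), 2.04 ± 0.43 in HCC827 (0.00285), 1.18 ± 0.38 in H1975 (0.0258) and 1.48 ± 0.29 in HCC2935 (0.000595). The H1975 call is lost without acute replicate 2 (1.10, 0.0828), acute replicate 3 (0.80, 0.0731) or DTP replicate 2 (0.92, 0.112), and when only the 6 libraries compared are fitted (0.0924). ETV4 was called higher in HCC827 alone (2.14 ± 0.34, adjusted p 0.000367), while in PC9 (0.52, 0.306), H1975 (-0.17, 0.679) and HCC2935 (0.39, 0.309) it was not called. ETV1 was higher in HCC827 by 3.61 ± 0.46 (adjusted p 8.28e-05) and in HCC2935 by 1.77 ± 0.65 (0.0363), the latter lost without acute replicate 1 (0.111), acute replicate 2 (0.117) or DTP replicate 2 (0.210), with a replicate block (0.0529) and with the 6 libraries compared fitted alone (0.0860). Without PC9 long washout replicate 3 in the fit, ETV1 (0.95, adjusted p 0.0226) and ETV4 (0.53, 0.00739) are called in PC9 too. ETV1 in PC9 is also called by limma on log2 TPM (1.20, 0.0219), and ETV4 with the 6 libraries compared fitted alone (0.53, 0.0244). In edgeR with all libraries of a line, HCC827 is the line where all 3 genes were called above their acute level, and without long washout replicate 3 PC9 is another.

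The counts of members called higher against acute drug were 2 of 6 in PC9 (16.1% of all genes), 3 of 5 in HCC827 (18%), 1 of 6 in H1975 (18.3%) and 5 of 6 in HCC2935 (22.8%). The ETV5 share of the summed PEA3-group TPM was higher in persisters than under DMSO in H1975 (67.2% against 39.3%), HCC2935 (53.4% against 37.6%) and PC9 (36.9% against 27.8%), and slightly lower in HCC827 (39.3% against 41.0%). The comparisons with DMSO and with acute drug use the same persister libraries, so they are not independent.

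The number of genes called after a day without drug depends on the line and the fit. Short washout against persisters called 1 of 6 members higher in PC9 (3.87% of all genes), 0 of 5 in HCC827 (0%), 0 of 6 in H1975 (0.0585%) and 0 of 6 in HCC2935 (2.32%). In PC9 edgeR called 880 genes (3739 at an unadjusted p under 0.05), DESeq2 1833 and limma 863. The PC9 count is 3221 with the 6 libraries compared fitted alone and 2636 without long washout replicate 3. It lies well below 880 with any 1 library of the arms compared left out. In HCC827 edgeR called 0 genes at all, with 291 at an unadjusted p under 0.05, and DESeq2 and limma also called 0. In H1975 edgeR called 9 genes (2110 at an unadjusted p under 0.05), DESeq2 509 with ETV4 among them and limma 12 without a member. In HCC2935 edgeR called 469 genes (2569 at an unadjusted p under 0.05), DESeq2 959 with ETV4 among them and limma 475 without a member. With 1 library of the arms compared left out, the H1975 and HCC2935 counts moved both ways (ranges at the end of the text).

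ETV4 is the member that moved in PC9, from 10.8, 8.47 and 9.51 TPM in persisters to 23.3, 28.8 and 26.4 TPM a day later. The groups stand well apart, at 11.9% and 32.4% of the DMSO mean, and the change was 1.46 ± 0.36 (adjusted p 0.0331). Over the alternatives the adjusted p ran up to 0.134: each of the 6 fits with 1 library left out gave 0.0679 to 0.134 (DTP replicate 1 0.0679, replicate 2 0.134, replicate 3 0.0996; washout replicate 1 0.0724, replicate 2 0.113, replicate 3 0.0719), with changes of 1.38 to 1.57, and a replicate block over all arms gave 1.46 (0.0502). Without PC9 long washout replicate 3 the ETV4 change is 1.48 (adjusted p 5.98e-05), and ETV5 is called as well (1.05, 0.00882, against 1.03 and 0.152 with it). The 6 libraries compared fitted alone call ETV5 too (1.02, 0.0344).

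The ETV4 groups of H1975 and HCC2935 do not overlap either. The share of all genes with such groups was not counted, so this describes the libraries only. H1975 went from 1.18, 2.07 and 1.14 TPM to 2.75, 3.52 and 3.09 TPM (1.05 ± 0.28, adjusted p 0.126), and HCC2935 from 4.17, 2.16 and 4.44 TPM to 7.59, 5.64 and 7.18 TPM (0.94 ± 0.28, 0.0884). Neither was called by edgeR, while DESeq2 called both (0.0123 and 0.0215), and edgeR without H1975 DTP replicate 2 called H1975 (1.37, 0.0219). Persister and short washout libraries of the same number deviate together in H1975 (correlations 0.290 to 0.638) and HCC827 (0.410 to 0.698), and a replicate block in those 6 libraries, added after seeing the data, calls H1975 ETV4 (1.09, 0.00962) among 1697 genes. The same 6 H1975 libraries without a block called 0 genes. In HCC827 ETV4 went from 8.77, 7.59 and 4.35 TPM to 5.18, 5.41 and 3.41 TPM, lower in each library of the same number, with a change of -0.57 ± 0.31 that was not called (adjusted p 1.0; with the block -0.55, 0.657, and 2 genes called in all). The test of the washout effect between lines called 0 of 6 members and 4 of 16120 genes (0.0248%), with 1600 genes at an unadjusted p under 0.05 in edgeR, 19 called by limma and 341 by DESeq2. ETV4 was nearest among the members at an adjusted p of 0.0898 (0.000215 to 0.143 over the alternatives, and up to 0.206 with 1 library left out). DESeq2 (0.000215), the fit without H1975 DTP replicate 2 (0.0455) and a replicate block within each line (0.0156, with 171 genes called) called it, so whether the lines differ in ETV4 depends on the fit.

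Long washout left the lines at different levels, and the lengths differ as well. ETV4 was still under DMSO in all 4 lines: 48.5, 56.9 and 13.9 TPM in PC9, 9.67, 6.53 and 11.9 TPM in HCC827, 1.56, 1.73 and 1.64 TPM in H1975 and 6.04, 8.62 and 13.4 TPM in HCC2935. No long washout library reached the DMSO range, and H1975 was the lowest at 7.29% of its DMSO mean, against 24.7% in HCC2935, 49.2% in PC9 and 52.2% in HCC827. The changes from DMSO were -1.15 ± 0.35 (adjusted p 0.0158) in PC9, -0.98 ± 0.30 (0.0178) in HCC827, -3.75 ± 0.30 (5.39e-07) in H1975 and -2.11 ± 0.27 (1.21e-05) in HCC2935. The HCC827 call is lost without DMSO replicate 1 (0.0663) or long washout replicate 2 (0.0817). The PC9 call is lost when the 6 libraries compared are fitted alone (-1.14, 0.0847), and without long washout replicate 3 it is -0.73 (0.00128).

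ETV5 was called lower after long washout in H1975 (-2.0 ± 0.38, adjusted p 0.000486) and HCC2935 (-1.34 ± 0.25, 0.000495). In PC9 it was at 24.9, 22.1 and 5.57 TPM, and the change of -1.01 ± 0.42 missed the threshold (0.0608), was called without long washout replicate 1 (-1.32, 0.0402) or replicate 2 (-1.27, 0.0373), and was smaller without replicate 3 (-0.57, 0.0946). Limma on log2(TPM + 1) called it (0.0468). HCC827 ETV5 overlapped its DMSO libraries at 10.7, 5.98 and 14.7 TPM (adjusted p 0.124), and was called lower with the 6 libraries compared fitted alone (-0.79, 0.0471). ETV1 was lower in PC9 (-1.15 ± 0.37, adjusted p 0.0204) and H1975 (-2.43 ± 0.53, 0.00134), but not called in HCC827 (-0.54, 0.279) or HCC2935 (-0.87, 0.207). The PC9 ETV1 call is lost without DMSO replicate 2 (-1.07, 0.0588) and in the 6 libraries alone (-1.14, 0.0720), and weakens without long washout replicate 3 (-0.77, 0.0470).

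Members called lower after long washout were 3 of 6 in PC9 (21.5% of all genes; the 3 include EGR3), 1 of 5 in HCC827 (20%), 3 of 6 in H1975 (26.0%) and 2 of 6 in HCC2935 (20.8%). The summed PEA3-group TPM traces the same course: 116, 7.04, 16.0, 38.8 and 58.7 in PC9 from DMSO through acute, persister, short and long washout, 42.6, 3.77, 18.6, 16.9 and 24.9 in HCC827, 53.4, 5.44, 8.97, 11.6 and 8.53 in H1975 and 67.5, 4.45, 10.3, 17.6 and 22.5 in HCC2935. H1975 is the line whose long washout sum (with the shortest washout, 3 days) is no higher than its persister sum.

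**Figure D3:**
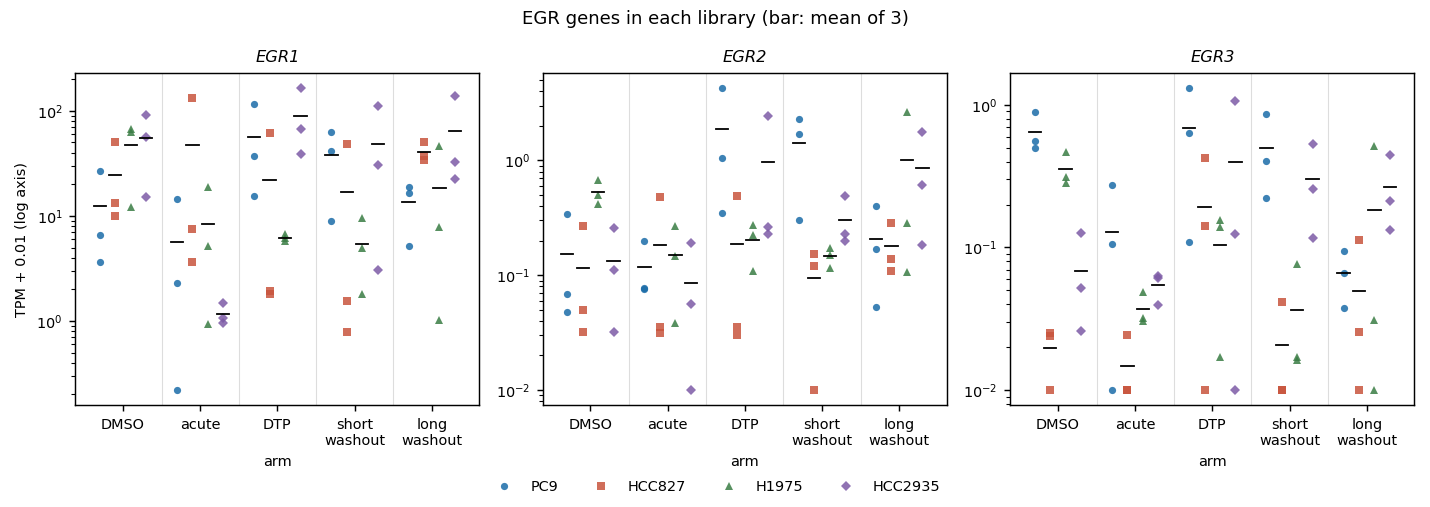
EGR1, EGR2 and EGR3 in each of the 60 libraries, as TPM + 0.01 on a log axis, by arm and line. Black bars are means of 3 libraries.

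EGR1 behaves differently, because its replicates spread widely within nearly every group. In PC9 it was at 26.9, 3.60 and 6.51 TPM under DMSO and 2.30, 0.210 and 14.4 TPM after acute drug, in HCC827 at 10.0, 50.9 and 13.4 TPM and then 7.46, 3.60 and 132 TPM, and in H1975 at 63.3, 12.1 and 67.2 TPM and then 0.931, 18.8 and 5.16 TPM. These 3 lines overlap between arms. HCC2935 does not: EGR1 was at 15.2, 56.5 and 92.1 TPM under DMSO and at 0.946, 1.06 and 1.47 TPM after acute drug, a fall of 45.4-fold (log2 change -5.51 ± 1.17, adjusted p 0.00114) that left 2.12% of the DMSO mean.

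The EGR1 acute change was not called in PC9 (-1.13 ± 1.09, adjusted p 0.373), HCC827 (0.86 ± 1.49, 0.688) or H1975 (-2.50 ± 1.12, 0.0748). Leaving out the highest acute library calls it in PC9 (without replicate 3, -3.31, 0.0327) and in H1975 (without replicate 2, -3.98, 0.0259), and leaving out the lowest DMSO library, replicate 2, calls it in H1975 too (-2.96, 0.0457). Limma also called H1975 (0.0496 on log2 TPM and 0.0458 with 1 added). In HCC827 the sign rests on acute replicate 3: the other acute libraries lie below every DMSO library, and without it the change is -2.18 (0.335, not called), while limma gives -0.31 and -0.22. The test of the difference between lines gave EGR1 an adjusted p of 0.0617, with 0.0238 to 0.300 over the alternatives: DESeq2 (0.0238) and the filter of at least 10 counts (0.0492) called it, as did 7 of the 24 fits with 1 library left out (0.0354 to 0.0458). Whether the fall in HCC2935 differs from the other lines thus depends on the fit.

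Persister EGR1 was at 39.2, 164 and 67.2 TPM in HCC2935, 68.3-fold above acute drug (6.09 ± 1.19, adjusted p 0.000595) and overlapping DMSO (0.59, 0.599). PC9 persisters were at 15.6, 37.0 and 116 TPM, above all 3 acute libraries, with a change of 3.06 ± 1.14 that missed the threshold (0.0512) and was called in 6 of 9 alternatives: DESeq2 (0.0321), limma (0.0126 and 0.0131), a replicate block (0.0287), the filter of at least 10 counts (0.0448) and the fit without PC9 long washout replicate 3 (0.0437). It also passed without acute replicate 3 (5.24, 0.0104) or DTP replicate 1 (3.50, 0.0437). Against DMSO the PC9 change of 1.93 ± 1.08 was not called (0.127), except without DMSO replicate 1 (3.21, 0.0424). In H1975 persisters EGR1 was tight at 6.13, 5.71 and 6.72 TPM, below every DMSO library (-2.94 ± 1.14, adjusted p 0.0423). That call is lost in 5 of the 6 fits with 1 library left out (0.0894 to 0.106, without DMSO replicate 1 or 3 or any of the DTP replicates) and in limma (0.0902 and 0.0651). HCC827 persisters were at 1.79, 61.8 and 1.91 TPM, 1 above every DMSO library and the others below every DMSO and acute library.

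EGR1 was not called after short washout in any line, with changes of -0.88 to -0.21 from persisters. After long washout it was not called either (PC9 -0.03, HCC827 0.66, H1975 -1.33, HCC2935 0.13), although H1975 without long washout replicate 3, at 46.2 TPM beside 1.01 and 7.90 TPM, gave -3.45 (adjusted p 0.0266). With all libraries in edgeR, EGR1 therefore has no change called in more than 1 line in the same comparison. In other fits it has: DESeq2, limma, the replicate block and the filter of at least 10 counts call persisters against acute drug in both PC9 and HCC2935, and limma calls acute drug in both H1975 and HCC2935.

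EGR2 was called in persisters of 2 lines. In PC9 it was at 0.335, 0.0376 and 0.0580 TPM under DMSO and at 0.342, 1.03 and 4.24 TPM in persisters (28, 4 and 5 against 25, 87 and 392 counts), so the groups only just separate and replicate 3 is far above the rest. The change was 3.47 ± 1.04 (adjusted p 0.00824) against DMSO and 3.85 ± 1.06 (0.0124) against acute drug. Without DTP replicate 3 both are lost (2.02, 0.0881 and 2.44, 0.0911), and the acute comparison also narrowly without acute replicate 1 (0.0505) or 2 (0.0502). In HCC2935 the persister libraries held 9, 103 and 9 EGR2 counts, against 1, 4 and 10 under DMSO and 2, 0 and 7 after acute drug. The calls there (2.81 ± 1.09, adjusted p 0.0398 against DMSO; 3.47 ± 1.16, 0.0231 against acute drug) rest on DTP replicate 2 and fall to 0.81 (0.565) and 1.48 (0.316) without it. The HCC2935 calls are also lost without DMSO replicate 1 (2.30, 0.131) or 2 (2.69, 0.103) against DMSO, and without acute replicate 1 (0.0765) or 2 (0.0757) against acute drug. The call against DMSO is lost with a replicate block (0.0644) and in limma (0.101 on log2 TPM and 0.134 with 1 added), and the call against acute drug in limma on log2(TPM + 1) (0.110).

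H1975 EGR2 lies the other way in 3 arms, at 0.664, 0.410 and 0.486 TPM under DMSO and at 0.0287, 0.137 and 0.257 TPM after acute drug, 0.264, 0.213 and 0.0987 TPM in persisters and 0.106, 0.162 and 0.139 TPM after short washout. All 9 of those libraries are below every DMSO library, at 27.1%, 36.9% and 26.1% of the DMSO mean. Long washout does not follow, at 0.0957, 0.274 and 2.65 TPM (256 counts in replicate 3) and 194% of the DMSO mean (1.01, adjusted p 0.343). The changes of -1.86 after acute drug (adjusted p 0.114) and -1.43 in persisters (0.209) were not called, except with the 6 libraries compared fitted alone (0.0425 and 0.0249). EGR2 was not called after acute drug (adjusted p 0.114 to 0.785) or after short washout in any line. After long washout HCC2935 came nearest (2.67 ± 1.09, 0.0588; called without DMSO replicate 3 at 0.0473 or long washout replicate 2 at 0.0322, by DESeq2 at 0.0315 and with the 6 libraries compared alone at 0.0408). HCC827 never held more than 22 EGR2 counts in a library, too few for a pattern to be read.

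EGR3 fell under acute drug where it was readable under DMSO. PC9 went from 0.486, 0.545 and 0.881 TPM to 0, 0.0958 and 0.262 TPM (45, 66 and 86 against 0, 12 and 27 counts), and H1975 from 0.274, 0.460 and 0.303 TPM to 0.0390, 0.0205 and 0.0222 TPM (33, 48 and 33 against 5, 2 and 2 counts). Both pairs of groups separate, with changes of -2.36 ± 0.92 (adjusted p 0.0340) in PC9 and -3.56 ± 1.25 (0.0275) in H1975. The PC9 call is lost without DMSO replicate 3 (0.0956), acute replicate 1 (0.0833) or acute replicate 2 (0.0896), and the H1975 call without DMSO replicate 2 (0.0584), acute replicate 2 (0.0832) or acute replicate 3 (0.0771). HCC2935 EGR3 held at most 5 counts a library in these arms and was not called (-0.55, 0.779).

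EGR3 in PC9 persisters spread around the DMSO libraries, 1 within their range, 1 below and 1 above, at 0.631, 0.0994 and 1.30 TPM (against DMSO -0.17, adjusted p 0.869). Against acute drug it was not called (0.0779), except by DESeq2 (0.0416), limma on log2 TPM (0.0488), and without acute replicate 3 (0.0368) or DTP replicate 2 (0.0284). In H1975 persisters EGR3 was called below DMSO with the 6 libraries compared alone (-1.82, 0.0446, against 0.173 with all). In PC9 long washout it was at 0.0563, 0.0276 and 0.0838 TPM (5, 3 and 7 counts), under every DMSO library and called lower (-3.70 ± 1.02, adjusted p 0.00940; -4.01, 0.0227 without replicate 3). HCC2935 persisters were called above acute drug (3.15 ± 1.21, adjusted p 0.0443), a call carried by DTP replicate 2 with 51 counts beside 5 and 0. Without that library it is 0.43 (0.802), and it is lost as well without acute replicate 1 (0.126), 2 (0.0866) or 3 (0.0980), with a replicate block (0.0910) and in limma (0.545 on log2 TPM and 0.216 with 1 added). Against DMSO it was not called (0.0640), except without DTP replicate 1 (0.0416) or 3 (0.0129). In H1975 long washout 1 library of 3 held 55 counts beside 2 and 0, and without it EGR3 would be called lower (-5.00, 0.00294).

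**Figure D4:**
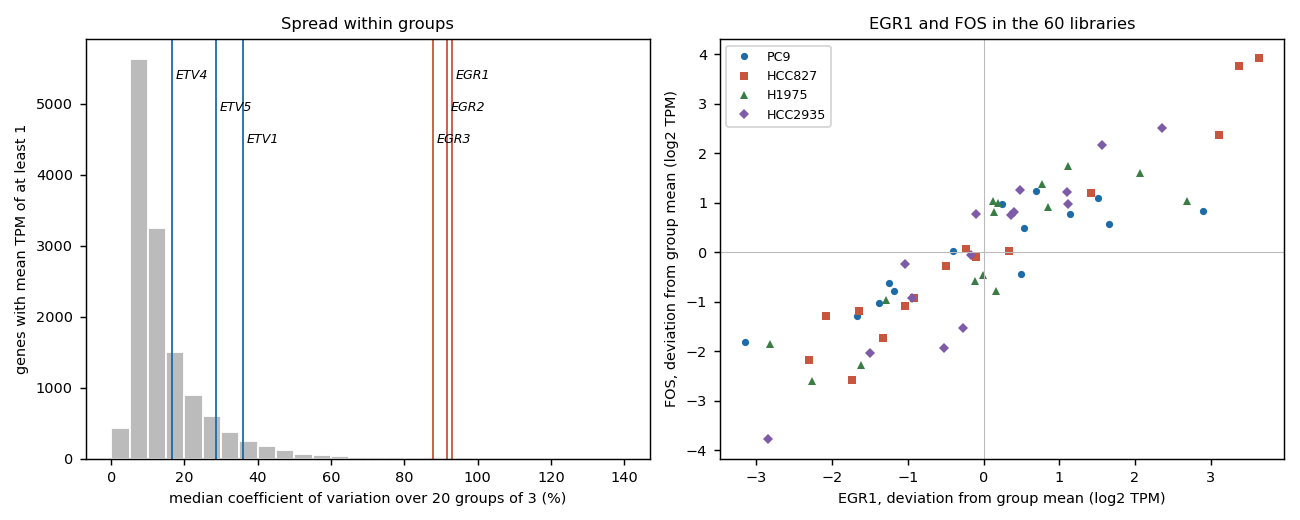
Left, median coefficient of variation over the 20 groups for genes of at least 1 TPM on average, with the 6 genes marked (EGR2 and EGR3 themselves average under 1 TPM). Right, deviation of EGR1 and FOS from their group means in each of the 60 libraries.

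The spread of EGR1 between replicates stands far above that of most genes. EGR1 had a median coefficient of variation of 92.9% over the 20 groups, against a median of 10.8% and a 95th percentile of 38.5% over the 13532 genes with a mean of at least 1 TPM. Of those genes 0.251% vary as much as EGR1. EGR2 (91.6%) and EGR3 (87.7%) average under 1 TPM at few counts, so they are not compared with that set. ETV1 (36.0%), ETV5 (28.5%) and ETV4 (16.6%) vary less than EGR1 but more than the median gene, with 5.92%, 10.3% and 26.8% of genes as variable. The highest EGR1 library of a group exceeded the lowest by a median of 6.56-fold and by up to 68.5-fold, in PC9 acute. The tightest groups were H1975 persisters (8.25%), HCC827 long washout (21.7%) and HCC2935 acute (23.6%).

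EGR1 shares its high libraries with many of the other immediate-early genes. The library with the most EGR1 in a group also had the most FOS in 16 of 20 groups. FOSB and IER2, each taken alone, reached 16 as well, though not in the same groups. The median gene reached 7, and 0.0810% of 13531 genes reached 16. IER3, JUN and NR4A1 reached 15, EGR2 and ATF3 14, JUNB 13 and EGR3 12. EGR2 and EGR3 were low in some groups (1 to 11 and 0 to 1 counts a library in HCC827 under DMSO). Their highest library there rests on few counts. The rest of that list lay nearer the median gene, FOSL1 and PHLDA1 at 9 and EGR4 at 8, while ETV5 reached 10, ETV4 5 and ETV1 4. In HCC827, EGR1 at 7.46, 3.60 and 132 TPM after acute drug went with FOS at 4.65, 4.01 and 50.7 TPM, and EGR1 at 1.79, 61.8 and 1.91 TPM in persisters with FOS at 1.07, 88.1 and 2.82 TPM. FOS itself varied by 76.5% and FOSB by 69.5%, but IER2 by 23.7%. The cause of this shared spread was not tested, and the replicate numbers carry no order.

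ERK feedback inhibitors moved with the PEA3-group genes after acute drug: 8 of 9 tested were called lower in PC9 (median log2 change -2.22, beside 31.7% of all genes lower), 7 of 9 in HCC827 (-1.46, 20.2%), 8 of 9 in H1975 (-1.67, 23.8%) and 8 of 8 in HCC2935 (-2.89, 22.2%), with 0 called higher. Over all genes tested the median change lay between 0.0239 and 0.0989. DUSP6 (-5.98 to -3.40), SPRY4 (-5.14 to -4.01), SPRED2 (-2.55 to -1.47) and DUSP5 (-3.10 to -1.46) fell in all 4 lines. DUSP6 went from 31.4 to 0.504 TPM in PC9, 14.3 to 1.43 in HCC827, 7.44 to 0.626 in H1975 and 134.9 to 2.91 in HCC2935. In persisters DUSP6 was at 11.4 TPM in HCC827, near its DMSO level, and at 1.33, 0.986 and 11.4 TPM in PC9, H1975 and HCC2935. DUSP5 in persisters was at 6.32 TPM in HCC827 (16.3 under DMSO), 20.3 in PC9 (30.6), 11.4 in H1975 (21.3) and 7.47 in HCC2935 (35.0), so the 2 genes rank the lines differently. Against DMSO, persisters had 5 of 9 feedback genes lower in PC9 (33.5% of all genes), 2 of 9 in HCC827 (20.4%, so near the share over all genes), 7 of 9 in H1975 (25.7%) and 7 of 8 in HCC2935 (25.8%), with 1 higher in each of PC9, HCC827 and H1975. Over all genes 5305 of 14866, 3373 of 14665 and 4002 of 15379 were higher in those lines.

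Other immediate-early genes were called lower after acute drug about as often as all genes in PC9 (4 of 11, beside 31.7%), HCC827 (2 of 10, beside 20.2%) and H1975 (2 of 11, beside 23.8%), with 2, 2 and 1 higher. In HCC2935, the line where EGR1 fell, 8 of 11 were lower (beside 22.2%) and 0 higher. FOSL1 (-4.82 to -3.31) and PHLDA1 (-2.67 to -1.32) fell in all 4 lines as ETV4 and ETV5 did, while IER3 (-2.74 to -0.07) fell in 2 and JUNB (-0.66 to 0.92) in 1, with 1 line higher. In persisters against acute drug 10 were higher in HCC2935 (beside 22.8% of all genes), 5 in PC9 (16.1%) and 1 each in HCC827 (18%) and H1975 (18.3%). EGR1, EGR2 and EGR3 were all called higher in that comparison in HCC2935, but the EGR2 and EGR3 calls rest on DTP replicate 2 and are lost without it.

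Transcripts of factors that act on these genes moved less after acute drug than ETV4 did. ELK1 (-0.60 to -0.46) was lower in 3 lines and ELK3 (-0.79 to -0.15) in 2 after acute drug, SRF (-0.16 to 0.41) was higher in 1 and ELK4 was not called. In persisters ELK3 was below DMSO in all 4 lines (-1.63 to -0.45). Among factors of PEA3-group repression and protein turnover, CIC (-0.28 to 0.54), ATXN1 (0.07 to 0.76) and ATXN1L (0.10 to 0.33) were higher in 2 lines each. ERF (-0.55 to 0.12) was lower in 2 lines and COP1, the ubiquitin ligase, was not called. In persisters ATXN1 was above DMSO in 3 lines (0.20 to 1.05). The protein levels and activity of these factors were not measured. NAB2 was higher in persisters in PC9 (1.16, adjusted p 1.89e-05) and HCC2935 (0.46, 0.0457) and lower in H1975 (-1.12, 0.000160). It was also higher after acute drug in HCC2935 (0.49, 0.0372), where EGR1 fell. Of the other ETS genes 2 of 15 tested were lower after acute drug in PC9 (beside 31.7% of all genes), 1 of 13 in HCC827 (20.2%), 1 of 13 in H1975 (23.8%) and 4 of 14 in HCC2935 (22.2%), with 8, 4, 4 and 2 higher. Over all genes 5126 of 14866, 2748 of 14665, 4271 of 15379 and 3720 of 14946 were higher in these lines. ELF3 rose (0.62 to 2.87) and ETS1 fell (-1.14 to -0.31) in all 4 lines after acute drug. SPDEF (-2.19 to -1.85) was called lower in 2 of the 3 lines where it was tested, so a few other ETS genes were lower as well.

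Proliferation genes fell with the PEA3-group genes: 6 of 6 were lower in all 4 lines after acute drug (median changes -1.75, -2.34, -2.16 and -1.99 in PC9, HCC827, H1975 and HCC2935, beside 31.7%, 20.2%, 23.8% and 22.2% of all genes lower) and again 6 of 6 in persisters against DMSO (beside 33.5%, 20.4%, 25.7% and 25.8%). PCNA (-2.37 to -2.08), CDK1 (-2.71 to -2.03), TOP2A (-2.39 to -1.65) and CCNB1 (-2.26 to -1.21) each fell less than ETV4 did. In persisters against acute drug 3 of the 6 were higher in PC9 (16.1% of all genes), 5 in HCC827 (18%), 2 in H1975 (18.3%) and 2 in HCC2935 (22.8%), among them PCNA in all 4 lines (0.68 to 1.35), CDK1 in 2, and TOP2A in 1. CCNB1 was higher in none of the lines. After long washout 2 of 6 were lower than under DMSO in PC9 (21.5% of all genes), 6 in HCC827 (20%), 6 in H1975 (26.0%) and 5 in HCC2935 (20.8%). Short washout called 2 of 6 higher in HCC2935 (2.32%) and 0 in PC9, HCC827 and H1975.

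Across the 20 group means, with each line centred on its own mean, the PEA3-group genes run together: ETV1 with ETV5 at a correlation of 0.936, and ETV4 with ETV1 and ETV5 at 0.92 each. Among 15224 genes the closest to ETV1 were SPRY4 (0.961), ETV5 (0.936) and NAA20 (0.935), to ETV4 VRK1 (0.980), ALYREF (0.965) and POP7 (0.963), and to ETV5 FEN1 (0.977), FOSL1 (0.972) and USP1 (0.969). By rank correlation the 3 closest were SPRY4, DUSP6 and ETV5 for ETV1, SPRED2, ETV5 and GPR3 for ETV4 and FOSL1, SPRED2 and NUP205 for ETV5, so 2, 0 and 1 of the 3 are shared and the neighbours named depend on the measure. EGR1 was closest to STK17B (0.840), SLC25A25 (0.824) and ITPRID2 (0.802), EGR2 to KLF10 (0.861), ENC1 (0.847) and SELENOS (0.804), and EGR3 to PTHLH (0.779), UBE2F.SCLY (0.779) and TMEM131 (0.768), with 1, 2 and 1 of the 3 shared by rank. EGR1 ran at 0.738 with EGR2 and 0.495 with EGR3, and EGR2 with EGR3 at 0.581. The PEA3-group genes ran at 0.439 to 0.525 with EGR1, 0.386 to 0.486 with EGR3 and -0.0037 to 0.143 with EGR2, beside median correlations of -0.106 to 0.0141 over all genes for the 6 members.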

How the data were processed

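RNA-seq was deposited as 2 tables of 19712 genes by 60 libraries, estimated counts and log2 TPM (pseudocount 0.01). The authors' notes name HISAT2 2.1.0 and Salmon 0.8.2 on hg38. Depth was 17.7 to 49.1 M counts a library, and log2 TPM was turned back into TPM for the levels given. Within each line, rounded counts of 15 libraries were fitted in edgeR 4.0.16 (TMM, default expression filter), and each comparison was tested with its quasi-likelihood F-test and Benjamini-Hochberg adjustment over all genes tested in the line (14866 in PC9, 14665 in HCC827, 15379 in H1975, 14946 in HCC2935). A gene is called at an adjusted p under 0.05. How often groups fail to overlap was not counted over all genes, so a lack of overlap describes only the gene named. Differences between the 4 lines were tested with 3 degrees of freedom on 24 libraries (12 for DMSO). Standard errors come from the same F-test.

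Alternatives were RLE factors, DESeq2 1.42.0, limma 3.58.1 on log2 TPM and log2(TPM + 1), other filters, a replicate block, the 6 libraries compared alone, and each library of the arms compared left out. A fit of PC9 without long washout replicate 3, and replicate blocks for the comparisons below, were added after seeing the data. Libraries of the same replicate number deviated together (every correlation over 0.1) in 3 of 20 comparisons: short washout against persisters in HCC827 and H1975, and acute against DMSO in HCC2935. The pairing is read from the data, as the labels do not say what a number marks. The members and gene lists were chosen with earlier results of these data known. Genes whose acute changes are named from a list were taken from those highest under DMSO or those with the largest acute changes. The latter were therefore picked on the change shown. Likeness is a Pearson correlation over 20 group means of log2 CPM (prior count 2). R 4.3.3 and Python 3.11.15 were used.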

Additional observations from a re-analysis of the deposited data

Results flagged for a closer look

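ETV5 is listed for a difference between groups: its fall under acute osimertinib was tested for any difference between the 4 lines and called (adjusted p 0.0474, edgeR quasi-likelihood test, 24 libraries), with changes of -4.65 in PC9, -3.33 in HCC827, -2.96 in H1975 and -3.84 in HCC2935. The call is near the threshold: it is lost in 4 of 8 alternative fits (adjusted p up to 0.209, and 0.162 with a replicate block within each line) and in 19 of the 24 fits with 1 library left out. As 40.5% of all genes tested were called in the same test, the call does not set ETV5 apart from other genes. What sets the lines apart for ETV5 was not tested.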

How the results depend on the processing

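Over 2065 values of the 6 members under alternatives, 1921 kept their side of the threshold, 80 lost a call, 64 gained one and 0 reversed with a call. RLE factors and no filter changed 0 of them. The acute falls of ETV1, ETV4 and ETV5 held wherever they were tested. EGR2 and EGR3 were read at 0 to 103 counts in HCC827 and HCC2935 (17.7 to 25.6 M counts a library) and, for EGR2, at 4 to 28 counts in PC9 under DMSO (a line at 34.7 to 47.1 M), and the role of depth was not tested. The cause of the changes below was not tested. Where fewer members or libraries are named, this says how the fit differs.

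A filter of at least 10 counts in every library tests fewer members (4 in H1975 and in the tests of the washout effect and DMSO level between lines, 3 elsewhere). Members called go from 4 to 2 in PC9 acute, 4 to 2 in PC9 persisters against DMSO, 3 to 1 in PC9 long washout, 4 to 2 in HCC2935 persisters against DMSO, 5 to 2 in HCC2935 persisters against acute drug, and 1 to 2 for the acute effect between lines. Genes called after short washout go from 9 to 14 in H1975 and from 4 to 17 between lines. Without a filter the H1975 count is 17.

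With DESeq2 the members called are 4 in place of 2 in PC9 persisters against acute drug, 2 in place of 1 for the acute effect between lines, and 1 in place of 0 after short washout in H1975, in HCC2935 and between lines. Genes called after short washout go from 880 to 1833 in PC9, 9 to 509 in H1975, 469 to 959 in HCC2935 and 4 to 341 between lines. Over all genes in PC9 persisters against acute drug, edgeR called 5036 of 14866, DESeq2 5453 and limma on log2 TPM 6444. Limma on log2 TPM called 5 members in that comparison and 19 genes for the washout effect between lines. On log2(TPM + 1) limma called 3 members in HCC2935 persisters against acute drug and 32 genes between lines. ERF in PC9 persisters against DMSO turned from -0.24 to 0.0096 and 0.0095 in these 2 fits, with adjusted p 0.913 and 0.911.

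Fitting the 6 libraries compared alone (fewer libraries) gave 3221 genes and 2 members after PC9 short washout. After PC9 long washout it gave 4278 genes in place of 6672 and 1 member in place of 3. It gave 2 members in place of 1 in HCC827 long washout (4 tested) and 0 genes after H1975 short washout. In persisters against acute drug it called 0 of 5 members tested in H1975 and 2 of 4 tested in HCC2935. EGR2 and EGR3 were not tested in that HCC2935 fit, so their calls were neither kept nor lost there. Without PC9 long washout replicate 3, added after seeing the data, 5 members were called in PC9 persisters against acute drug, and 2636 genes and 2 members after short washout.

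Same-number correlations ran from -0.671 to 0.698, with line medians of -0.0183 to 0.0195, and were over 0.1 in every pair in 3 of 20 comparisons. A replicate block in the 6 libraries of those 3, added after seeing the data, called 2 genes in place of 0 after HCC827 short washout, 1697 in place of 9 and 1 member in place of 0 after H1975 short washout, and changed no other call of a member. These fits differ from the main fit in both the block and the libraries used. The same 6 H1975 libraries without a block called 0 genes. A block within each line called 0 members in place of 1 for the acute effect between lines, and 171 genes in place of 4 and 1 member in place of 0 for the washout effect. With a replicate block over all arms, members called were 0 after PC9 short washout, 3 in HCC2935 persisters against acute drug and 0 for the acute effect between lines, and genes called after short washout were 56 in H1975 and 2 between lines.

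With 1 library of the arms compared left out (fewer libraries), members called ranged from 1 to 4 in PC9, 0 to 1 in H1975 and 2 to 5 in HCC2935 persisters against acute drug, 1 to 3 in HCC827 persisters against DMSO, 0 to 1 in HCC827 and 3 to 5 in H1975 long washout, and 0 to 2 for the acute effect between lines. After short washout, genes called ranged from 105 to 431 in PC9, 0 to 590 in H1975, 132 to 486 in HCC2935 and 0 to 24 between lines, with 0 members in PC9 and 0 to 1 in H1975 and between lines.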
